A study of Mus musculus with 12 samples.

Results

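The comparison described here set 2 mouse embryonic stem cell (ESC) lines that lack microRNAs for different reasons directly against each other. The first line carries a homozygous Dicer1 deletion (Dicer1-/-, labelled as the Dicer knockout series) and the second a homozygous Dgcr8 deletion (Dgcr8-/-, labelled as the Dgcr8 knockout series). Each had 3 RNA libraries, as did the wild-type line of each series, TFC beside the Dicer line and V6.5 beside the Dgcr8 line. All 12 libraries were strand-specific, polyadenylated RNA-seq of cells grown on gelatin in serum and leukaemia inhibitory factor, with no treatment named. The labels do not say whether a knockout line is 1 clone, nor that a group's libraries were made from different cultures, so the p-values below measure how these libraries vary, which may be technical. The Dicer knockout and TFC levels were deposited in a table of their own, and the Dgcr8 knockout and V6.5 levels in another, each scaled separately and each as a mean over the libraries of a group. Members were the genes with a deposited exonic mean of at least 10 normalised reads in either knockout column, matched by gene name and exon length, which gave 13028 of 18412 genes listed. Of these, 12033 reached that level in both knockouts, 610 in the Dicer knockout alone and 385 in the Dgcr8 knockout alone. The level was read on each table's own scale, where the median gene is 0.46 higher (log2) in the Dicer knockout. These counts therefore do not show which line expresses more genes. Just inside the threshold lay Chil1, at 10.01 in the Dicer and 6.51 in the Dgcr8 column, and just outside it Best1, at 9.998 and 8.99; both were chosen after their values were seen. A difference between these lines cannot be told apart from a difference between the parental lines or between the series, because each knockout exists in 1 line only. The wild-type lines of the series are therefore set beside it throughout.

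Most microRNAs are cut in the nucleus and again in the cytoplasm as they are made. In the nucleus Drosha and its RNA-binding partner Dgcr8 release a hairpin from the primary transcript, and in the cytoplasm Dicer trims the hairpin to the mature duplex that an Argonaute protein loads and uses to repress messenger RNAs. Both steps are therefore needed for canonical microRNAs, whereas mirtrons and a few capped or otherwise unusual hairpins skip Drosha and Dgcr8 but still need Dicer, as do endogenous small interfering RNAs. Dgcr8 and Drosha in turn cleave some messenger RNAs, that of Dgcr8 included. A comparison at the level of messenger RNA describes how alike these lines are, each without one or the other step. It cannot separate the step lost from the parental line or the series.

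The mature sequences below are those the seed analysis rests on, as RefSeq gives them on GRCm38.p6, with the seed (bases 2 to 8) in capitals. The first set holds canonical microRNAs that are abundant in ESCs. The members of the miR-290 cluster, miR-291a-3p (chr7:3218968-3218989, plus strand), miR-294-3p (chr7:3220691-3220712) and miR-295-3p (chr7:3220815-3220837), share 1 seed, which overlaps that of miR-17-5p. The latter lies with miR-92a-3p in a cluster on chromosome 14 (chr14:115043684-115043706 and chr14:115044476-115044496), miR-16-5p in the Smc4 gene (chr3:69009918-69009939), miR-26a-5p in Ctdspl (chr9:119031811-119031832) and miR-130a-3p on the minus strand at chr2:84741116-84741137.
miR-291a-3p: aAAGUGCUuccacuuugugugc
miR-294-3p: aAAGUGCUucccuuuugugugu
miR-295-3p: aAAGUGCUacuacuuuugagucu
miR-17-5p: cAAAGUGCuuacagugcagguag
miR-92a-3p: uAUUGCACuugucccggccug
miR-16-5p: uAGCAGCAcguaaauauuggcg
miR-130a-3p: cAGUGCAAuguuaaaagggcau
miR-26a-5p: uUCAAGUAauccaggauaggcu
The second set holds microRNAs known to need Dicer and not Dgcr8, which a Dgcr8 knockout could still make: miR-484 (chr16:14159630-14159651), and the mirtron-derived miR-877-5p (chr17:35960795-35960814, minus strand, within Abcf1), miR-1224-5p (chr16:20604452-20604472, within Vwa5b2) and miR-702-3p (chr5:136991520-136991541, within Plod3). None of them shares a seed with the first set or with another of its own.
miR-484: uCAGGCUCaguccccucccgau
miR-877-5p: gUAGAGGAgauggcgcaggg
miR-1224-5p: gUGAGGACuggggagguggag
miR-702-3p: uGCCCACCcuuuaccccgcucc
The third set is let-7a-5p (chr13:48538239-48538260, minus strand, for 1 of its copies), a canonical microRNA of which ESCs make little, because Lin28 proteins block its maturation.
let-7a-5p: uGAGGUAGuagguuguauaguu

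The deposited means keep the arithmetic of the reads behind them, and whole read numbers of each group's 3 libraries were recovered from them. In the knockouts 99.5% to 99.7% of genes had exactly 1 solution. Some of the rest were kept with the likeliest solution, judged by the library ratios of abundant genes. The knockout libraries held 15463898 to 31057051 recovered exonic reads and 1984095 to 4461887 intronic reads. All libraries were then put on 1 scale, so that levels below, called normalised reads, can be compared between series. Libraries are lettered A, B and C within a group, since the deposited means do not say which library carries which replicate number. In each group the letter A was given to the library that correlates least with the others, so that trait is fixed by the naming. That library also has the lowest share of even read numbers in its group (57.7% to 64.1% against 65.4% to 77.4% in B and C, among genes with over 10 reads). Across 12932 genes, A of the Dicer knockout and A of the Dgcr8 knockout had a Spearman's rho of 0.967, higher than any A library with B or C of its own group (0.854 to 0.926). Genes are not independent replicates, so these values are descriptions. The naming gives every group 1 A library, so the library sets cross the groups evenly by that choice. Each gene called between the knockouts is given also within set A and within sets B and C. A value within set A compares 1 library with 1 library.

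**Figure D1:**
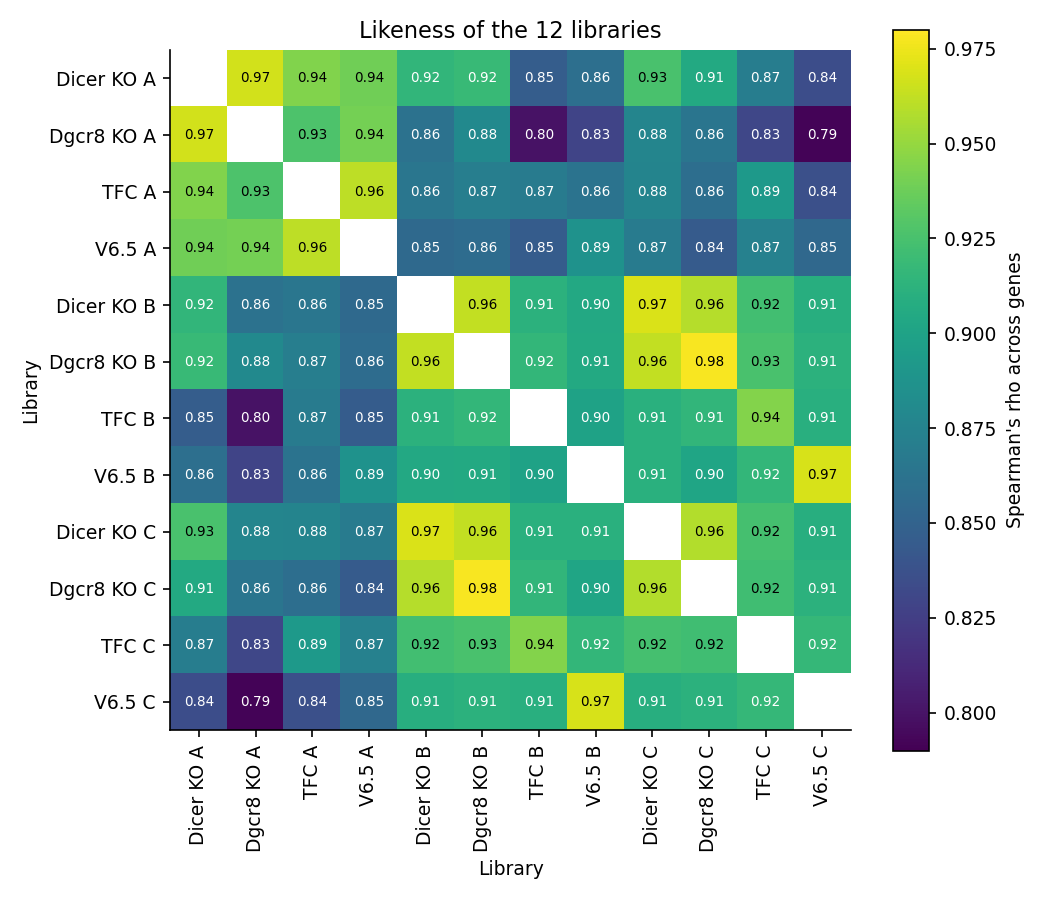
Spearman's rho across 12932 genes between every pair of the 12 recovered libraries, ordered by library letter (A, B, C) and group; KO is knockout, TFC and V6.5 are the wild types. The A libraries of all groups form a block of their own, at 0.927 to 0.967, and among B and C libraries the Dicer and Dgcr8 knockouts are close to each other, at 0.958 to 0.963.

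The 2 knockout lines ranked their genes nearly alike, and in the deposited means and in libraries B and C, though hardly in A, they lay closer to each other than their wild-type lines did. The deposited Dicer and Dgcr8 knockout columns ranked the members with a Spearman's rho of 0.981, against 0.95 for the wild-type columns, 0.946 for the Dicer knockout against TFC and 0.936 for the Dgcr8 knockout against V6.5. Among B and C libraries, rho between a Dicer and a Dgcr8 knockout library was 0.958 to 0.963, below the 0.969 within the Dicer knockout and the 0.978 within the Dgcr8 knockout. The same pairs between TFC and V6.5 gave 0.899 to 0.917, below the 0.945 within TFC and the 0.968 within V6.5. The wild-type libraries also varied more within a group. Median absolute log2 differences between B and C were 0.47 in TFC and 0.43 in V6.5, against 0.33 in the Dicer and 0.28 in the Dgcr8 knockout. Libraries A, B and C of V6.5 held 5869714, 16700633 and 10303239 recovered exonic reads. In set A the pairs were nearly as close as each other, with a rho of 0.967 between the knockouts and 0.961 between TFC and V6.5, and median absolute log2 differences of 0.39 and 0.393. Over all libraries together, the median absolute difference per gene between knockouts was 0.29 on the log2 scale and 16.7% of genes differed by more than 1, against 0.46 and 25.9% between the wild types.

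A limma model over all 12 libraries, on log2(normalised reads + 1), tested 12943 of the members. It called 14 genes (0.108%) at a Benjamini-Hochberg adjusted p under 0.05, 10 higher in the Dicer knockout (0.0773%) and 4 lower (0.0309%). Unadjusted p was under 0.05 for 375 genes (2.9%). The higher genes were Eif2s3y, Uty, Ddx3y, Ehd3, Sema5a, Rhox5, Gsto1, Arl14epl, Fhl1 and Ak4, and the lower ones Myof, Hunk, Dicer1 and Mid1. In all 14 the Dicer and Dgcr8 knockout libraries did not overlap, as in 8.74% of all genes tested. That separation by itself fixes the same direction within set A and within sets B and C. With a term for the library set, the count was 34 (0.263%), 24 higher (0.185%) and 10 lower (0.0773%), all 14 of the first among them, and without library A of every group it was 43, 27 higher and 16 lower. On each table's own deposited scale, where the median gene is shifted by 0.46, the split of calls was 14 higher and 3 lower. A limma fit of the 6 knockout libraries alone, which estimates the spread without the wild types, called 0 genes, with 456 at an unadjusted p under 0.05; with the library set term it called 86. The 85 members not tested have high read numbers that more than 1 whole-number combination explains, and their deposited levels differed between knockouts by -0.48 to 0.56 (log2, after dividing by the median ratio of the columns).

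**Figure D2:**
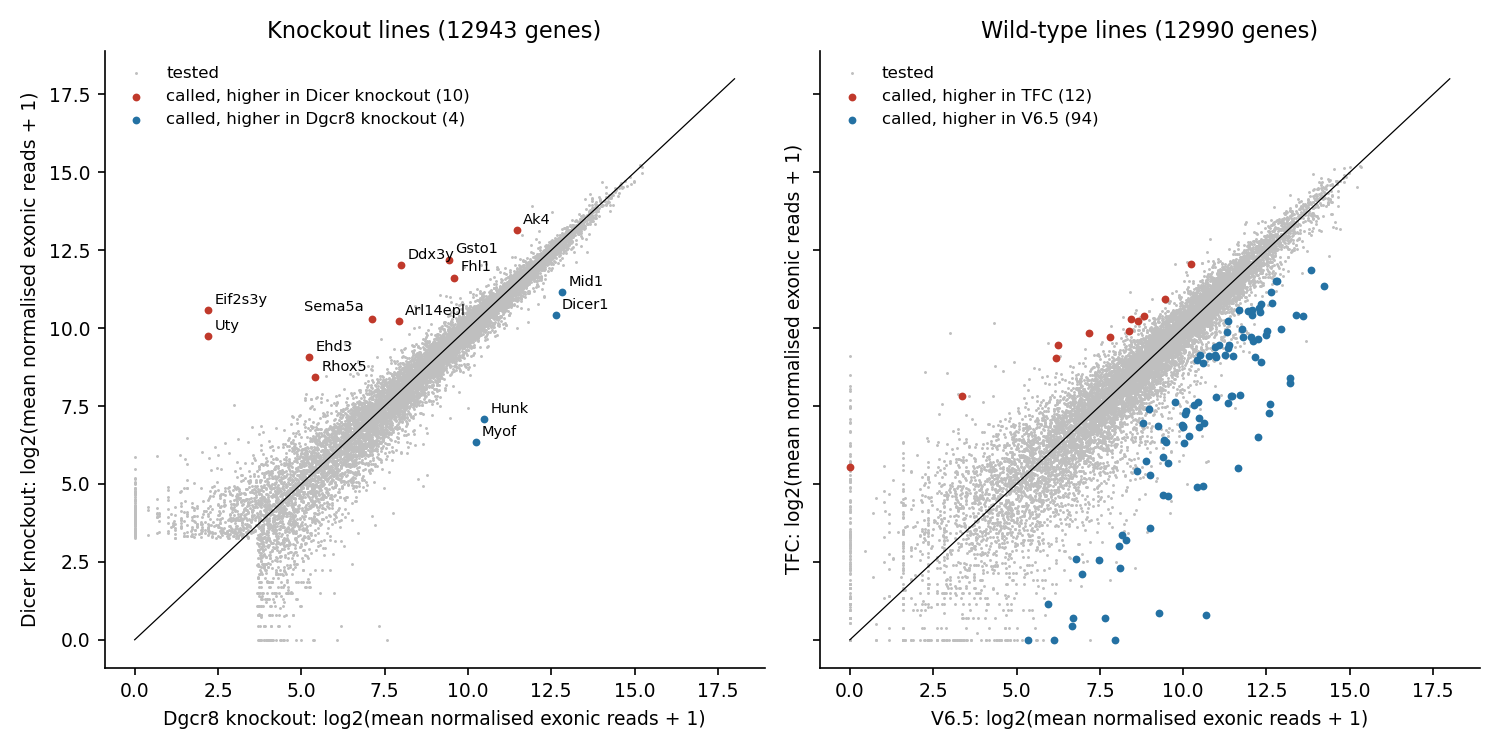
Mean level of each gene, as log2(normalised exonic reads + 1), in the Dicer knockout against the Dgcr8 knockout (left, 12943 genes) and in TFC against V6.5 (right, 12990 genes), with the line of equal level; coloured points passed an adjusted p of 0.05. The knockout points lie closer to the line, and 14 are coloured there against 106 between the wild types.

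The deleted genes were read first, as a check of the labels. Dicer1, on chromosome 12 (104687740 to 104751968) of GRCm38.p6, had 1159.9, 1512 and 1436 normalised exonic reads in libraries A, B and C of the Dicer knockout and 4915, 6965 and 7202 in those of the Dgcr8 knockout. Every Dicer knockout library lay below every Dgcr8 knockout library, with a log2 difference of -2.20 (SE 0.22, limma adjusted p = 0.00104). TFC, at a mean of 2795, lay below V6.5, at 5394. Dgcr8, on chromosome 16 (18253948 to 18289251), had 3226, 4506 and 4252 reads in the Dicer knockout and 405, 1119 and 1297 in the Dgcr8 knockout. Its lowest Dicer knockout library was thus above its highest Dgcr8 knockout library. The difference of 2.24 (SE 0.43) missed the threshold in the main limma fit (adjusted p = 0.129) and passed it with the library set term (adjusted p = 6.19e-05), with 2.99 within set A and 1.86 within B and C. Each line was low in the transcript its label names, and neither was at 0. For intronic reads of the same genes the log2 difference was 0.07 for Dicer1 (95% interval -0.65 to 0.79, adjusted p = 0.999) and -0.44 for Dgcr8 (-1.11 to 0.22, adjusted p = 0.991).

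Beyond the deleted genes, no gene of the microRNA machinery was called. Of 12 production factors tested, Dicer1 was the 1 called, and the median difference was 0.08, against 0.02 over all genes tested. Drosha, the nuclear ribonuclease that works with Dgcr8, had 4152, 2686 and 3106 reads in the Dicer knockout and 3451, 3001 and 3553 in the Dgcr8 knockout, a difference of -0.03 with a 95% interval of -0.53 to 0.47. Ddx5, a helicase of the Drosha complex, differed by 0.02 (-0.95 to 1.0). Lin28a, which blocks let-7 maturation, was at 2209, 2198 and 2595 in the Dicer knockout and 4253, 3436 and 4473 in the Dgcr8 knockout, with no overlap, and did not pass (log2 -0.79, limma adjusted p = 1). Its relative Lin28b differed by 0.14 (-1.02 to 1.29), with 1.15 within set A and -0.37 within B and C. Among 10 Argonaute, Tnrc6 and deadenylation factors none was called, and the median was -0.03. Ago2, the Argonaute that can slice, had 4905, 3311 and 4296 reads in the Dicer knockout and 4392, 3897 and 3637 in the Dgcr8 knockout, and its interval was -0.46 to 0.57. Ago1 differed by -0.31 (-0.73 to 0.10), Tnrc6a, a scaffold of the silencing complex, by -0.02 (-0.71 to 0.66) and Cnot1, the scaffold of the main deadenylase, by -0.04 (-0.71 to 0.64).

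Besides Dicer1, 3 genes were lower in the Dicer knockout, and all of them were also lower in TFC than in V6.5. Myof, the membrane-repair protein myoferlin, on chromosome 19 (37899036 to 38043577), had 54.5, 81.8 and 102 normalised reads in the Dicer knockout and 1053, 1244 and 1314 in the Dgcr8 knockout. The libraries lay far apart, at -3.94 (SE 0.54, limma adjusted p = 0.0137), and TFC against V6.5 gave -3.64 (adjusted p = 0.00924). Hunk, a kinase of the AMPK-related family, on chromosome 16 (90385284 to 90499555), had 163, 125 and 114 in the Dicer knockout and 1403, 1435 and 1459 in the Dgcr8 knockout. Its difference was -3.43 (SE 0.27, adjusted p = 0.000298) between knockouts and -1.67 between wild types (adjusted p = 0.0173). Mid1, an X-linked ubiquitin ligase of microtubules, on chromosome X (169685199 to 169990798), had 2951, 1827 and 2061 against 7669.5, 6787 and 7422. It differed by -1.71 (SE 0.24, adjusted p = 0.014), and by -1.84 between TFC and V6.5 (adjusted p = 0.00566). The test of the difference between the knockout and the wild-type contrast did not pass for any of them (adjusted p = 0.999 for Myof, 0.136 for Hunk and 0.999 for Mid1).

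**Figure D3:**
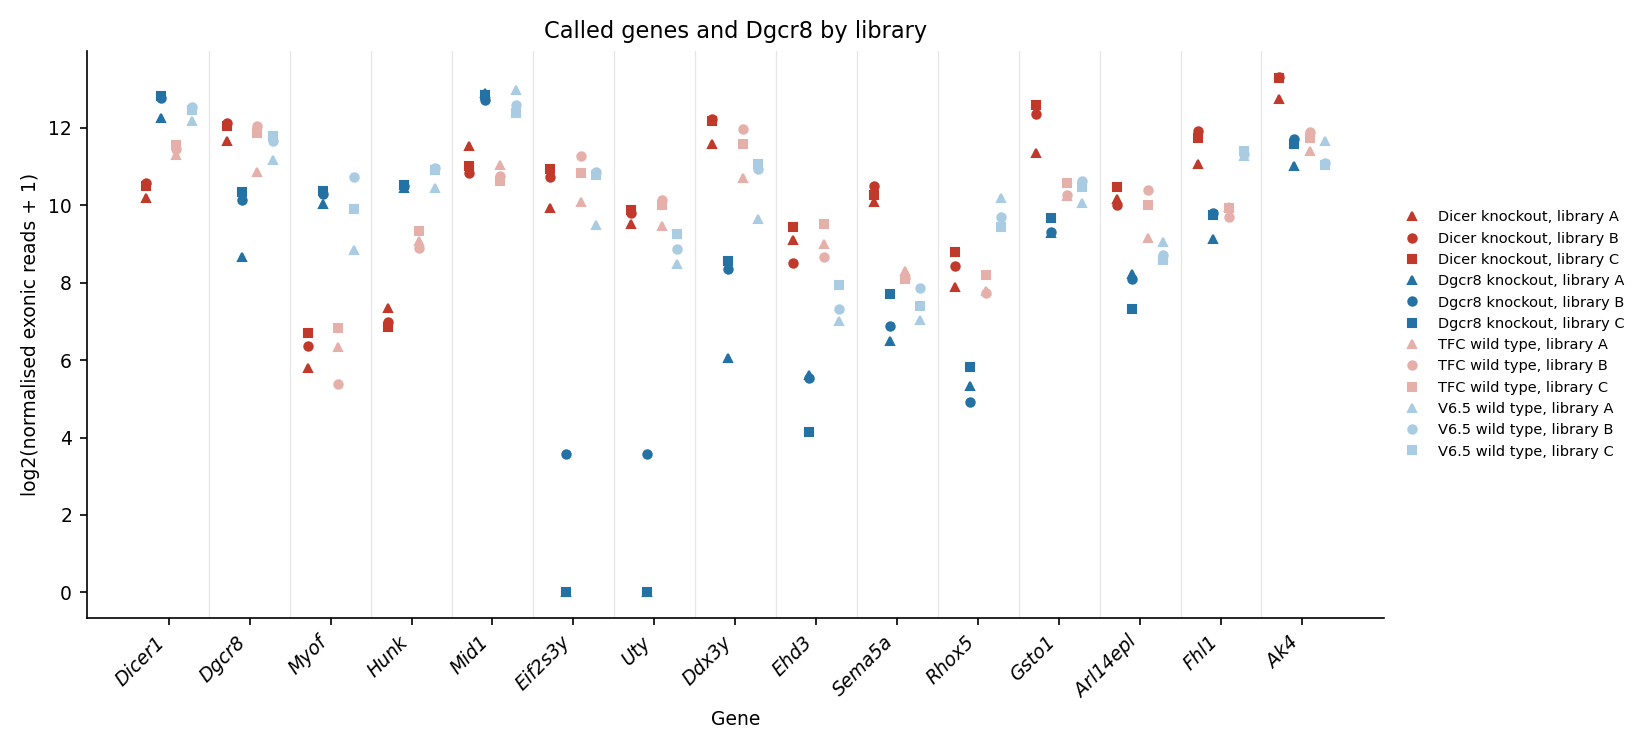
Normalised exonic reads, as log2(reads + 1), of the 14 called genes and Dgcr8 in each library of the Dicer knockout, the Dgcr8 knockout, TFC and V6.5; triangles, circles and squares are libraries A, B and C. Knockout libraries do not overlap for any gene shown. Eif2s3y and Uty are at 0 in libraries A and C of the Dgcr8 knockout and well above in every other group.

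The widest of the called differences were those of Y-linked genes. Eif2s3y, the Y-linked copy of a translation initiation subunit, on chromosome Y (1010562 to 1049134), had 978, 1684 and 1951 reads in the Dicer knockout and 0, 10.9 and 0 in the Dgcr8 knockout. Uty, the Y-linked relative of a histone demethylase, on chromosome Y (1085187 to 1245773), had 734, 888 and 943 against 0, 10.9 and 0. Both were thus absent from the counts of libraries A and C of the Dgcr8 knockout, where 0 reads allow a level of up to 1.48 and 2.79 (counting error only), and low in library B. The fitted differences were 9.34 (SE 0.84, adjusted p = 0.000541) and 8.54 (SE 0.82, adjusted p = 0.000808), sizes that depend on the pseudocount: they were 7.65 and 6.86 with a pseudocount of 5. Ddx3y, a Y-linked RNA helicase, on chromosome Y (1260715 to 1286628), was lower in the Dgcr8 knockout but not absent, at 3077, 4832 and 4597 against 65.1, 327 and 374 (log2 4.35, SE 0.61, adjusted p = 0.0137). A close relative, Ddx3x, lies on the X chromosome, and the sources used here do not give how reads that fit both were counted. Kdm5d, a Y-linked histone demethylase, was at 7.78, 25.3 and 11.4 against 0, 7.28 and 0, and was not called (adjusted p = 1). Neither wild-type line lacked these transcripts: Eif2s3y had means of 1796 in TFC and 1450.5 in V6.5, and Uty 949 and 479.5. The Dgcr8 knockout was accordingly low against V6.5 as well, and the difference of knockout effects was 8.99 for Eif2s3y (adjusted p = 0.00682) and 7.55 for Uty (adjusted p = 0.0227).

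The other 7 genes higher in the Dicer knockout came from several chromosomes, and for each of them every Dicer knockout library, named first, lay above every Dgcr8 knockout library. Ehd3, a protein of endosomal recycling, on chromosome 17 (73804841 to 73832093), had 553, 361 and 688 reads in the Dicer knockout and 48.4, 45.5 and 16.8 in the Dgcr8 knockout (log2 3.91, SE 0.55, adjusted p = 0.0137). Sema5a, a semaphorin of axon guidance, on chromosome 15 (32244813 to 32696341), had 1082, 1434 and 1228 against 89.8, 116 and 209 (log2 3.25, SE 0.42, adjusted p = 0.00891); TFC and V6.5 had 287 and 177, so the Dicer knockout had the highest mean of the groups. Rhox5, a homeobox gene of the X-linked reproductive cluster, on chromosome X (37754608 to 37808878), had 235, 346 and 442 against 39.5, 29.1 and 55.9 (log2 3.01, adjusted p = 0.0229). In the wild types Rhox5 ran the other way, at 241 in TFC and 894 in V6.5, and the difference of knockout effects passed (4.88, SE 0.64, adjusted p = 0.00682). Gsto1, an omega-class glutathione transferase, on chromosome 19 (47854973 to 47864790), had 2631, 5262 and 6179 against 623, 630.4 and 815 (log2 2.69, SE 0.31, adjusted p = 0.00379), while TFC and V6.5 were close to each other at 1317 and 1359. Arl14epl, on chromosome 18, had 1138, 1023 and 1411 against 298, 275 and 158 (log2 2.32, adjusted p = 0.0415). Fhl1, an X-linked LIM-domain protein, on chromosome X (56731209 to 56793346), had 2155, 3848 and 3427 against 560.0, 892 and 852 (log2 2.02, SE 0.27, adjusted p = 0.011). It was lower in TFC than in V6.5 (934 against 2573, adjusted p = 0.0267), the 1 gene called in opposite directions in the 2 contrasts. Ak4, a mitochondrial adenylate kinase, on chromosome 4 (101416478 to 101467771), had 6888, 10265 and 9969 against 2080.2, 3365 and 3094 (log2 1.67, SE 0.27, adjusted p = 0.0415), with 3297 in TFC and 2489 in V6.5.

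Within set A and within B and C, the sizes were near each other for Myof (-4.25 and -3.79), Hunk (-3.10 and -3.59), Dicer1 (-2.08 and -2.26), Fhl1 (1.94 and 2.06), Ehd3 (3.49 and 4.12), Rhox5 (2.54 and 3.24), Arl14epl (1.93 and 2.52) and Ak4 (1.73 and 1.65). Sema5a gave 3.58 and 3.08, Mid1 -1.38 and -1.87, and Eif2s3y 9.94 and 9.04. The sets were wider apart for Ddx3y (5.54 and 3.75), Gsto1 (2.08 and 2.99) and Uty (9.52 and 8.05). Leaving out library B of the Dicer knockout left 4 calls, leaving out its library C 5, and leaving out library B of the Dgcr8 knockout 8. Over all alternatives the adjusted p of Dicer1 was 1.41e-06 to 0.065, of Hunk 2.09e-06 to 0.0529, of Uty 3.93e-06 to 0.0848, of Arl14epl 0.00329 to 0.309 and of Ak4 9.18e-05 to 0.329.

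With the library set in the model, 14 more genes were higher in the Dicer knockout and 6 more were lower. Among the higher ones were the imprinted genes Peg3, Peg10 and Slc38a4 and, on the X chromosome, Klhl13, Nxt2, Rhox6, Sh3bgrl and Slc6a14. Peg3, a paternally expressed zinc-finger gene, on chromosome 7 (6703892 to 6730462), had 17947, 14654 and 13797 reads in the Dicer knockout and 3698, 4139.9 and 3919 in the Dgcr8 knockout (log2 1.97, SE 0.34, adjusted p = 0.00192 with the set term and 0.0506 without). Peg10, a paternally expressed gene of retrotransposon origin, had 10635, 14898 and 14679 against 3995, 6568 and 7121 (log2 1.21, adjusted p = 0.00775 with the set term). Nxt2, a messenger RNA export factor, had 1186, 1847 and 2009 against 168, 408 and 452, and Rhox6, a neighbour of Rhox5 in its cluster, 768, 855 and 576 against 86.8, 98.2 and 74.5. All of these were separated between the lines in every library. Tfpi, the tissue factor pathway inhibitor, Slc40a1, the iron exporter ferroportin, Mylpf, a myosin light chain, S100a6, a calcium-binding protein, and Tsc22d1 were also higher, with log2 differences of 1.73, 2.21, 1.57, 1.39 and 1.0. Dgcr8 completes this group. The lower genes were Eps8, an actin regulator (102, 81.8 and 34.2 against 263, 266 and 355), Map1b, a microtubule-associated protein (5909, 5489.6 and 5259 against 8772, 13986 and 13973), Trh, the thyrotropin-releasing hormone precursor (3608, 1407 and 1287 against 9015, 2888 and 2997), Vrtn, Zfp607b and Gbp2b. For Trh, the A libraries were far above B and C in both lines, and the lines overlapped, but -1.32 within set A and -1.13 within B and C are alike. For Eps8, Map1b and Trh the adjusted p in the model with the set term was 0.0347, 0.0182 and 0.00969.

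Some genes had reads in 1 knockout and next to none in the other. 139 tested members had a mean under 1 in the Dgcr8 knockout and 57 had one in the Dicer knockout, but all were at low levels, with a highest mean of 58.5 and 189 in the other line. Each of them became a member through its deposited level of at least 10 in the other line, so a gap between the lines was fixed by that minimum. The minimum was applied on each table's own scale, so these counts do not show which line has more such genes. None of these genes was called without the set term. Slc6a14, an X-linked amino acid transporter, had 34.5, 74.1 and 63.8 reads in the Dicer knockout and 0 in every Dgcr8 knockout library, at least 73.3-fold higher against 3 reads over the group (adjusted p = 0.00879 with the set term, 0.0506 without). It was present in both wild types, at 86.4 in TFC and 421 in V6.5. Aldh3b2, an aldehyde dehydrogenase, had 75.6, 21.4 and 34.2 against 0, at least 71.1-fold, and did not pass (adjusted p = 0.695). Tmprss3, a membrane serine protease, had 18.3, 107 and 50.1 against 0, 1.82 and 0 (adjusted p = 0.613). Car8, a carbonic anhydrase relative, and Vgll1, a cofactor of Tead factors, were each at 0 in the Dgcr8 knockout and also in 1 library of the Dicer knockout.

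In the other direction, Gbp2b, an interferon-inducible guanylate-binding protein, had 0 reads in every Dicer knockout library and 84.9, 106 and 375 in the Dgcr8 knockout, at least 203-fold lower (adjusted p = 0.00775 with the set term, 0.0506 without). The wild types differed in the same way, at 0.719 in TFC and 1650.0 in V6.5 (adjusted p = 0.00566). Lox, the lysyl oxidase that cross-links collagen, had 0 against 107, 54.6 and 39.1, at least 93.5-fold lower, and Wdr64 0 against 5.43, 22.7 and 94, at least 40.3-fold. Neither passed (adjusted p = 0.613 and 1). Serpina3m, a serine protease inhibitor, had 1.11, 0 and 0 against 83.9, 180.1 and 219, and Apod, apolipoprotein D, 1.11, 0 and 0 against 72, 100.1 and 44.7. Their libraries were also fully separated, with adjusted p = 0.456 and 0.277. Close relatives of Gbp2b and Serpina3m lie beside them in the genome, so reads of these families could be split by the authors' counting.

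The lines were set beside each other for the gene groups that mark ESC state. Pou5f1, Nanog and Sox2, the core pluripotency factors, were high in both. Nanog had 16268, 16114 and 15941 reads in the Dicer knockout and 14820.5, 14115 and 14494 in the Dgcr8 knockout, a difference of 0.15 with a 95% interval of -0.45 to 0.75. Pou5f1 had 24931, 11930.2 and 12914 against 33249, 11664 and 10307, with the A library highest in each line (-0.02, -1.25 to 1.21), and Sox2 20744, 19756 and 14889 against 21879.7, 17548 and 19059.8 (-0.09, -1.11 to 0.93). Of 23 core and naive pluripotency genes tested none was called, 9 had a positive difference, and the median was -0.09; in TFC against V6.5 the median was 0.87, with 19 of 23 positive. Primed epiblast genes, which mark the step out of the naive state, had a median of -0.35 between knockouts, with 13 of 16 negative and none called. Otx2, a homeobox factor of that state, had 1133, 1090.3 and 1045 in the Dicer knockout and 2317, 2243 and 2175 in the Dgcr8 knockout (log2 -1.04, SE 0.40, adjusted p = 1); it was chosen after its values were seen. Dnmt3b, a de novo DNA methyltransferase, differed by -0.30 (-1.08 to 0.48) and its relative Dnmt3a by -0.51 (-1.34 to 0.33).

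Genes reported as targets of miR-290 and miR-302 microRNAs gave no call between the lines. Of 14 tested, 6 had a positive difference, none differed by more than 1 and the median was -0.06. Lats2, a kinase of the Hippo pathway, had 1999.7, 1707 and 1515 reads in the Dicer knockout and 2261, 1909 and 1979 in the Dgcr8 knockout, a difference of -0.24 with an interval of -0.90 to 0.41; TFC and V6.5 had 169 and 498. Cdkn1a, the cyclin-dependent kinase inhibitor p21, had 1709, 2134 and 2255 against 2537, 1913 and 1923 (-0.06, -0.74 to 0.61). Casp2, an initiator caspase, differed by -0.06 (-0.71 to 0.58) and Rbl2, a pocket protein that represses E2F targets, by -0.17 (-0.99 to 0.64); these were named as textbook targets. Txnip, the thioredoxin-interacting protein, Lefty2, a Nodal antagonist, and Ei24, a p53 target, had the highest levels of the list, and differed by 0.26, -0.54 and -0.42. The 22 genes of the G1 to S transition had a median of 0.01 and those of p53 and apoptosis -0.05, with none called in either. Ccnd1, cyclin D1, had 6860.0, 6174 and 5966 against 10936, 11450.0 and 10106, with no overlap (log2 -0.77, adjusted p = 1), and Trp53, encoding p53, differed by 0.08 (-0.58 to 0.74).

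Markers of other cell types were compared next, and none was called between the knockouts. In bulk samples fewer cells of a type and less RNA per cell cannot be told apart. The 13 trophectoderm markers tested had a median of 0.30 between knockouts and -2.75 between TFC and V6.5, where 4 were called lower in TFC. Their summed level was 5138 to 7112 normalised reads in the Dicer knockout libraries and 3239 to 5168 in the Dgcr8 knockout libraries; Plac1 was at 0 in both, and Elf5 in the Dgcr8 knockout. Krt8 and Krt18, keratins of simple epithelia, had 662, 423 and 599 and 226, 758 and 632 in the Dicer knockout against 812, 155 and 143 and 459.9, 104 and 42.8 in the Dgcr8 knockout. Set A gave -1.02 and sets B and C 3.36 for Krt18, so the direction turned with the library set. The 13 primitive endoderm markers had a median of -0.10 between knockouts against -2.21 between wild types, with sums of 38536 to 51759 normalised reads in the Dicer knockout libraries and 44098 to 45926 in the Dgcr8 knockout libraries. Sparc and Lamc1, basement membrane genes that lead this list, differed by 0.58 and -0.18. Afp was at 0 in both knockouts, Sox17 in the Dicer knockout and Hnf4a in the Dgcr8 knockout. For primitive streak and mesoderm markers the medians were 0.04 (7 genes) and -3.51. The sums were 606 to 791 normalised reads in the Dicer knockout libraries and 345 to 439.6 in the Dgcr8 knockout libraries, and T, the Brachyury gene, was at 0 in the Dgcr8 knockout. Neural markers gave -0.28 between knockouts (10 genes), led by Nes, the filament protein nestin, at 1069, 1104 and 884 against 2317, 2407 and 1845, which did not pass (adjusted p = 1). Hox genes gave -0.36 and -3.11, the latter -3.21 with genes at 0 in 1 wild type set at their bound.

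Fibroblast markers were the list with the lowest median between knockouts, at -1.03, with 10 of 12 negative and none called. Their summed level, most of it from Vim, the filament protein vimentin, was 5462 to 8162 normalised reads in the Dicer knockout libraries and 8034 to 15182 in the Dgcr8 knockout libraries. The ranges overlap slightly. Col1a2, Col3a1, Lum, Postn, Prrx1 and Lox were at 0 in the Dicer knockout, and of the same list Lum alone was at 0 in the Dgcr8 knockout. Between the wild types the list had a median of -2.60, in the same direction. The part of such cells in the genes called above was not tested.

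Imprinted and germline genes had wider differences than all genes tested, but not wider than some other lists. The median absolute difference was 1.03 for fibroblast and 0.96 for neural markers. Of 20 imprinted genes, 8 differed by more than 1 between knockouts, as did 16.7% of all genes tested. Their median absolute difference was 0.94, against 0.29 over all genes. None was called in the main model, and Peg3 and Peg10 were with the set term. The list's median was 0.43, 0.82 within set A and 0.09 within B and C. Igf2, the fetal insulin-like growth factor, had 948, 2509 and 2093 against 903, 478 and 787 (log2 1.29, adjusted p = 0.878), with 0.07 in set A and 1.90 in B and C. Zdbf2 differed by 1.54 in set A and 0.02 in B and C. Usp29, a neighbour of Peg3 that is paternally expressed as well, had 158, 101 and 162 against 41.4, 12.7 and 24.2, and Zim1, a maternally expressed gene of the same cluster, had 15, 13.6 and 4.56 against 65.1, 70 and 29.8. Both were separated, in opposite directions, and missed the threshold (adjusted p = 0.703 and 1); these were chosen after their values were seen. Of 16 germline genes that DNA methylation normally silences, 14 had a positive difference, as did 52.3% of all genes tested. Rhox5 was called, and the median was 0.82 (1.24 in set A, 0.59 in B and C). Their median absolute difference was 0.93 between knockouts and 1.09 between wild types. Tex19.1 had 962, 1438 and 1961 against 709.5, 827 and 914 and Sohlh2, a germ cell transcription factor, 1082, 1345 and 1577 against 477, 791 and 994, with no overlap in either and an adjusted p of 1 in both. None of the writers and readers of DNA methylation was called, and their median was -0.09 over 13 genes; Dnmt1, the maintenance methyltransferase, had 7580.3, 7236 and 7052 against 8090.4, 7447 and 7152 (-0.05, -0.48 to 0.38). Genes of the 2-cell stage, which ESCs express in bursts, had a median of 1.0 over 6 genes; Zscan4f had 164, 228 and 125 against 59.2, 106 and 78.2 and its values are uncertain, since its family holds near-identical copies.

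Signalling pathways that act on ESCs gave no call between the knockouts either. Medians were -0.13 for Nodal and Activin genes (18 of 25 negative), 0.08 for BMP genes, -0.42 for Wnt genes (13 of 15 negative), -0.27 for Fgf and Erk feedback genes, -0.17 for LIF and Stat3 genes and 0.06 for Yap and Tead genes. Skil, a repressor of Smad signalling, had 6833, 6088 and 4980.1 in the Dicer knockout and 5353, 10271 and 10551 in the Dgcr8 knockout, with 0.35 in set A and -0.92 in B and C. Id2, a target of BMP signalling, had 2685, 4591 and 4644 against 1677, 2136 and 1799, separated but not passing (log2 1.05, adjusted p = 1). Ctnnb1, beta-catenin, differed by -0.01 (-0.52 to 0.50) and Yap1, the Hippo effector, by -0.23 (-0.65 to 0.19). Fgf4 had 7332, 9491 and 8296 against 11549, 12226 and 13992 (-0.59, adjusted p = 1). Lifr, the LIF receptor, differed by 0.17 in set A and -0.96 in B and C. Double-stranded RNA sensors and interferon genes had a median of 0.26 over 25 genes with none called; the abundant Ifitm2 and Ifitm3 differed by 0.01 and -0.30. Polycomb genes (0.07), glycolysis genes (-0.01), integrin and matrix genes (-0.01) and genes of the epithelial-mesenchymal switch (0.02) had medians near that of all genes. Simple epithelial and junction genes had a median of 0.51, at -0.03 in set A and 0.76 in B and C. Ribosomal protein genes had -0.39 in set A and 0.37 in B and C, so their direction turned with the set. Across the 31 lists, 26 had a smaller median absolute difference between knockouts than between wild types. Over all genes tested that median was smaller between knockouts too, at 0.29 against 0.46, and some genes are in more than 1 list.

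**Figure D4:**
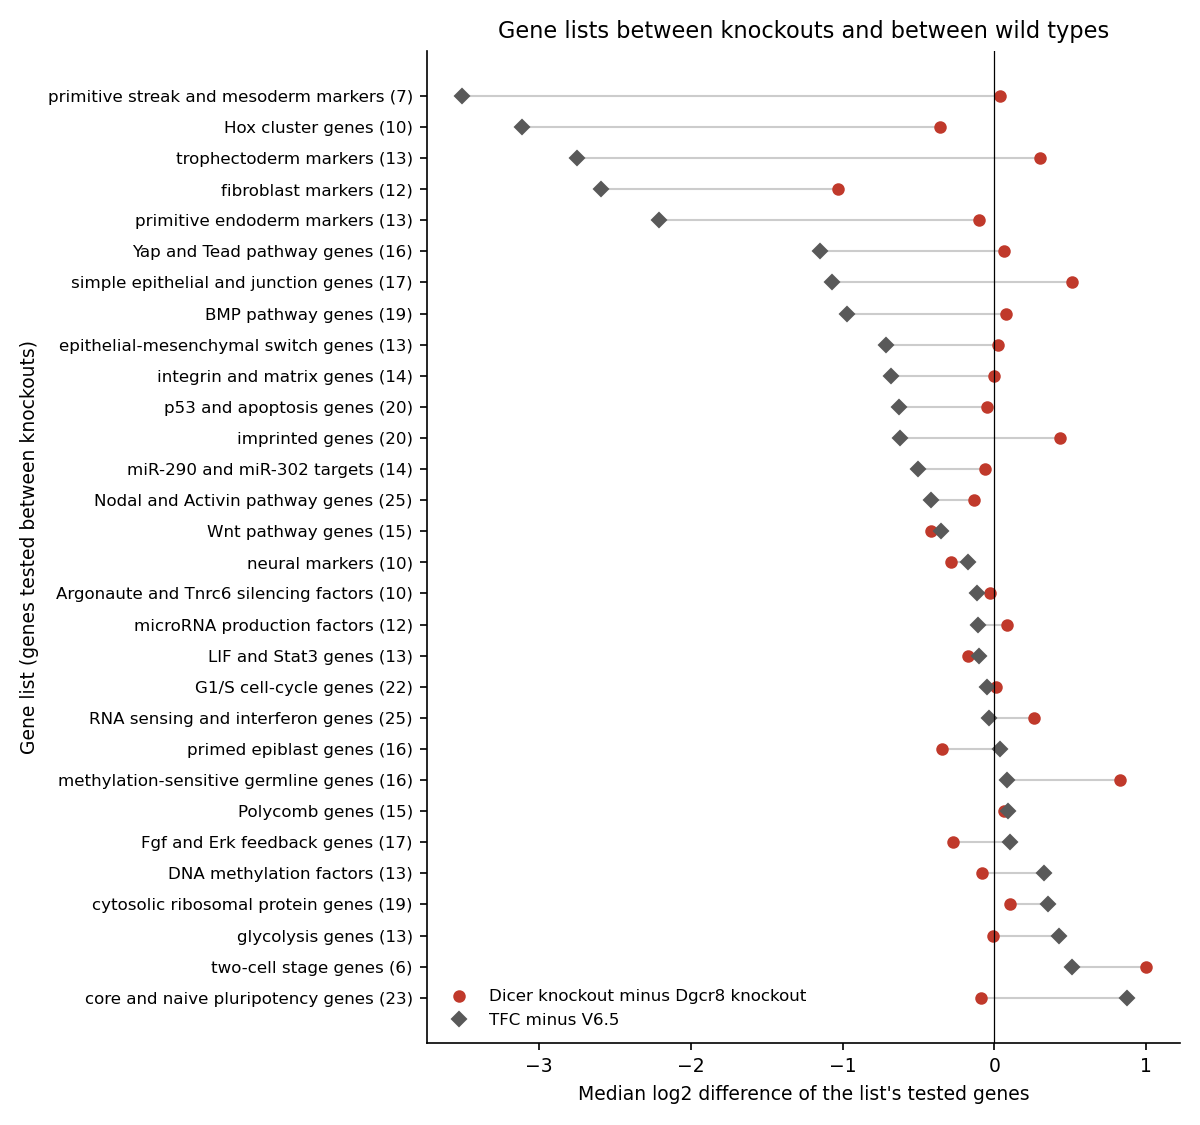
Median log2 difference of each gene list between the Dicer and Dgcr8 knockouts (red circles) and between TFC and V6.5 (grey diamonds), with the number of genes tested between knockouts; Y-linked genes, at 6.44 and 0.92, are left out for scale. Streak, Hox, trophectoderm and endoderm lists lie at -3.51 to -2.21 between the wild types and at -0.36 to 0.30 between the knockouts.

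The seeds printed above were searched for in messenger RNAs, as the DNA letters that pair with bases 2 to 8, on the strand of the transcript, in the longest annotated untranslated region after the coding sequence of each of 12649 members. The motifs were AGCACTT for miR-294-3p, GCACTTT for miR-17-5p, GTGCAAT for miR-92a-3p, TGCTGCT for miR-16-5p, TTGCACT for miR-130a-3p, TACTTGA for miR-26a-5p, GAGCCTG for miR-484, TCCTCTA for miR-877-5p, GTCCTCA for miR-1224-5p, GGTGGGC for miR-702-3p and CTACCTC for let-7a-5p. The first serves miR-291a-3p and miR-295-3p too, and overlaps that of miR-17-5p by all but 1 letter. A match is a description and not a site in use. Genes with a miR-294-3p match (2240, 17.7% of the regions) had a median difference of 0.01, against 0.02 for all genes searched and 0.03 for those without. For the 8 canonical microRNAs the medians ran from -0.04 to 0.03. The microRNAs that need Dicer and not Dgcr8 gave -0.03 for miR-484 (2179 genes, 17.2%), -0.00292 for miR-877-5p (10.2%), -0.03 for miR-1224-5p (13.2%) and -0.04 for miR-702-3p (10.9%). Genes with a let-7a-5p match had -0.04 (10.7%). Every median thus lay close to that of all genes. For miR-294-3p matches the library sets differed by more, with a median of 0.10 in set A and -0.11 in B and C. For miR-484 matches the sets were close, at -0.05 and -0.07, where all genes searched gave -0.01 and -0.004.

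Most of the genes that set the wild-type lines apart were not called between the knockouts. Those that were comprised 3 in the same direction and 1, Fhl1, in the opposite one. This is a larger share than over all genes tested between the knockouts, where 14 of 12943 were called (0.108%). Both contrasts use the same estimate of spread for a gene. Their calls are thus not independent, and this share is a description. Between TFC and V6.5, 106 genes were called (0.816%), 12 higher in TFC (0.0924%) and 94 lower (0.724%). On the deposited scale of each table the split was 194 higher and 74 lower, and single libraries moved the count widely. It was 11 without library B, 21 without C and 364 without A of V6.5, and 54, 57 and 203 without the same libraries of TFC. Without a knockout library, which enters through the shared spread, it was 62 and 53 for B and C of the Dicer knockout, and 66 and 160 for C and A of the Dgcr8 knockout. The knockout libraries entered the choice of these wild-type genes through the shared estimate of spread and through the minimum knockout level set for members. Genes below that level in both knockouts could thus not be among them. In the knockout libraries the 94 genes lower in TFC, whose wild-type median was -3.10, had a median difference of 0.08. Of these, 42 were lower and 52 higher in the Dicer than in the Dgcr8 knockout, 71 differed by less than 1, and 91 differed by less than between the wild types. Myof, Hunk and Mid1 were the 3 that the knockout contrast also called in that direction. For the 12 genes higher in TFC the knockout median was -0.03, and none was called between knockouts. Genes picked for a wide difference are on average less wide in any other libraries, so the size of this step is a description.

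**Figure D5:**
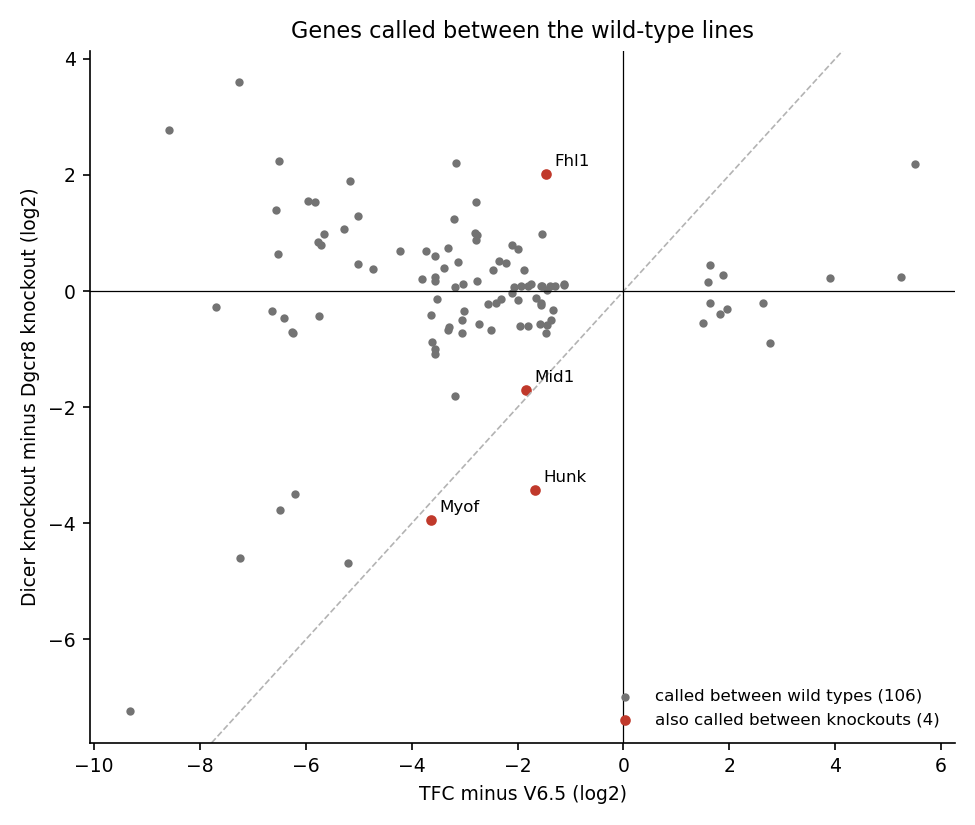
Log2 difference between the Dicer and Dgcr8 knockouts against that between TFC and V6.5, for the 106 genes called between the wild types; the dashed line marks equal differences. Of the 94 points left of 0, 71 lie within 1 of a knockout difference of 0, and the 4 in red, Myof, Hunk, Mid1 and Fhl1, were called between the knockouts too.

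A direct test of whether the difference between knockouts departs from that between wild types, named the difference of effects here, called 19 genes (0.147%), 18 positive (0.139%) and 1 negative (0.00773%). The count was 11 and 4 without library B or C of the Dicer knockout, 12 without B or C of the Dgcr8 knockout, 11 and 12 without B or C of V6.5, and 48, 41 and 100 without library A of the Dgcr8 knockout, TFC or V6.5. Krt8, Krt18 and Igf2 were among the positive ones, and had far lower means in TFC than in V6.5. Krt8 had 154 against 6089, and Krt18 188 against 6228. Igf2 had 301 in TFC and 9414 in V6.5, and the difference of effects was 6.31 (SE 0.55, adjusted p = 0.000708). For Krt8 it was 6.35 (adjusted p = 0.00682) and for Krt18 7.06 (adjusted p = 0.0195). Tagln, a smooth muscle actin-binding protein, and Ctgf and Cyr61, targets of Yap and Tead, were also called, at 5.31, 2.91 and 4.07; none of the 3 was called between the knockouts themselves (log2 -0.43, 0.80 and 0.75). Sfrp1, a secreted Wnt antagonist, was the negative one (-2.21, SE 0.35, adjusted p = 0.0298). It had 5005, 6164 and 5931 in the Dicer knockout and 6246, 8577 and 7662 in the Dgcr8 knockout, and 4286 in TFC against 1194 in V6.5.

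Intronic reads, which come mostly from unspliced RNA, were tested in the same way. Their libraries were lettered by the best match of their deviations to those of the exonic libraries. For A, B and C that match had r of 0.31, 0.09 and 0.10 in the Dicer knockout and 0.43, 0.19 and 0.24 in the Dgcr8 knockout. A letter may therefore not mark the same library in exonic and intronic reads. Of 11451 genes tested, 6 were called (0.0524%), with Eif2s3y, Uty, Peg3 and Arntl2 higher in the Dicer knockout (0.0349%) and Ccnb1ip1 and Pde4d lower (0.0175%). Peg3 had 1898, 1876 and 1726 intronic reads in the Dicer knockout and 362, 349 and 528 in the Dgcr8 knockout (log2 2.17, adjusted p = 0.0254), close to its exonic 1.97. Arntl2, a circadian transcription factor, had 351, 617 and 478 against 64.8, 46.1 and 112 (log2 2.74, adjusted p = 0.00439), with an exonic difference of 2.89 that did not pass (adjusted p = 0.187). Pde4d, a cyclic AMP phosphodiesterase, had 1881, 1818 and 1793 against 12529.6, 6480.2 and 6723 in introns (log2 -2.16, adjusted p = 0.00432), while its exonic reads differed by -0.47 (-1.37 to 0.42). Ccnb1ip1, a meiotic crossover factor, had 0, 0 and 0 against 288, 259.6 and 122 in introns, and 30, 13.6 and 45.6 against 303, 507 and 403 in exons. Of the 10 genes called higher by exonic reads, all 10 had an intronic difference of the same sign and 2 were called; of the 4 lower ones the count was 3, Dicer1 being the exception. Without library B, or without library C, of the Dicer knockout no intronic gene was called by limma (402 and 469 genes had an unadjusted p under 0.05), and without library B of TFC 14 were.

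Whole chromosomes were compared last. The median log2 difference per chromosome was -0.01 to 0.07 over the 19 autosomes, and 0.12 over 470 genes of the X chromosome, with 0.27 in set A and 0.00447 in B and C. The X libraries of the 2 lines overlapped (library medians -0.08 to 0.21 and -0.36 to 0.18, exact 2-sided permutation p = 0.8). With the set term 7 X-linked genes were called higher and 1 lower, 1.7% of those tested there, against 0.185% on the autosomes. Over 5 Y-linked genes the median was 4.35, and the library medians did not overlap (exact permutation p = 0.1, the smallest that 3 against 3 libraries can give, and 1 adjusted over 21 chromosomes).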

How the data were processed

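Polyadenylated RNA was sequenced with its strand kept, per the labels' protocols. Reads were aligned with TopHat2 2.0.12 to mm10 and scaled with DESeq, per the submitters' processing notes, and a counting rule was not found in the sources used here. The deposited values are group means of normalised reads per gene (a signal, not counts), for exons and for introns. Each mean is a whole-number combination of 3 steps, 1 per library, and solving for these gave whole reads per library. Recovery was checked on simulated data. The deposited tables were scaled separately, so recovered reads were put on 1 scale over all 12 libraries by median of ratios. limma 3.58.1 (R 4.3.3, trend) was fitted on log2(value + 1) with 4 group means, and p-values were Benjamini-Hochberg adjusted over all genes tested. The fit was tested on simulated data too. Intervals are 95% limma intervals. Of exonic genes with several solutions, those where 1 solution held over 0.99 of the weight, by the library ratios of abundant genes, were kept. These were 44 of 62 such genes in the Dicer knockout and 12 of 96 in the Dgcr8 knockout. The 85 members left without a kept solution in 1 or both knockouts were not tested. Tables were handled in Python 3.11.15 with pandas 2.3.3 and scipy 1.17.1.

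Genes were named by rule: the deleted genes, Pou5f1, Nanog and Sox2, called genes with separate libraries and a mean of at least 100 (12 per direction at most), the 5 highest genes per direction under 1 in the other knockout, up to 6 highest and 6 lowest differences of effect among genes called there, and up to 3 highest members of each list. Lin28a, Ago1, Ago2, Otx2, Usp29, Zim1, the textbook targets, genes called only with the library set term or in introns, Ctgf and Cyr61 were added after their values were seen. 1 gene that the rule names is not reported here. Members and lists were chosen with earlier results of these data known. Library letters were assigned from the data, A to the library least correlated with the others of its group, and pair nothing. The library set term rests on these letters, so the adjusted p-values of fits with it are not free of that choice. Chromosomes and gene positions are RefSeq's for GRCm38.p6, matched by symbol for 99.88% of members. The lowest chi-square per gene between libraries of a group was 21.3, above sampling noise.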

Additional observations from a re-analysis of the deposited data

Results flagged for a closer look

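For 6 genes the Dicer-minus-Dgcr8 difference was not the same between the knockouts as between the wild types, by the limma test of the difference itself. Values are on the log2 scale, as the difference of effects, then in parentheses that between knockouts and that between wild types, with the range of the adjusted p over its alternatives. Eif2s3y gave 8.99 (9.34 and 0.35; 0.000126 to 0.129) and Uty 7.55 (8.54 and 0.99; 0.000306 to 0.137), where libraries A and C of the Dgcr8 knockout were at 0. Krt18 gave 7.06 (1.90 and -5.17), with adjusted p-values of 0.00113 to 0.131. Krt8 gave 6.35 (1.07 and -5.28), with 0.000115 to 0.0541, and Igf2 6.31 (1.29 and -5.02), with 1.89e-05 to 0.00888. Sfrp1 was the 1 negative gene, at -2.21 (-0.39 between knockouts, 1.82 between wild types), with 0.00124 to 0.142. Those above 0 were picked as wide ones among the genes that passed, and their sizes are not free of that choice.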

How the results depend on the processing

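Counts of called genes moved with the library set and with the estimate of spread. Between the knockouts, where the count was 14, the library set term gave 34 (24 higher, 10 lower), the 6 knockout libraries alone 0, the same with the set term 86 (52 higher, 34 lower) and leaving out library A of every group 43 (27 higher, 16 lower); with no variance trend the split was 9 higher and 7 lower. The fit of the knockout libraries with the set term and that without the A libraries were chosen after seeing the data. Between TFC and V6.5 the count was 268 (194 higher, 74 lower) on the deposited scale, 813 (250 higher, 563 lower) with the set term and 1385 (616 higher, 769 lower) without the A libraries. For the difference of effects it was 12 with no variance trend, 275 with the set term and 600 without the A libraries. For introns it was 191 (187 higher, 4 lower) on the deposited scale, 10 with a pseudocount of 5, 11 with no variance trend and 18 for the knockout libraries alone with the set term. The Y-linked median was 6.44 over genes with a mean of at least 50. Leaving out each library in turn gave 4 to 19 calls between knockouts, 11 to 364 between wild types, 4 to 100 for the difference of effects and 0 to 14 for introns. The cause was not tested. Over the genes named singly, 2723 gene-by-alternative values stayed on their side of the threshold, 181 fell short of it, 76 newly passed it and 0 turned the direction of a called difference. Among uncalled differences, 51 values of 20 results changed sign. No paired analysis was possible because the deposited columns are group means and carry no replicate numbers.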

Other observations

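Some genes that passed only with the library set term had a mean in 1 knockout above or below the means of all other groups. Sh3bgrl, an X-linked gene, had 1331, 1647 and 1806 normalised reads in the Dicer knockout, 76, 586 and 451 in the Dgcr8 knockout, and means of 833 in TFC and 2329.9 in V6.5. Klhl13, an X-linked adaptor of a ubiquitin ligase, had 4890.3, 9741 and 9714 against 2733, 3300.3 and 3411, with means of 8890.5 and 17952, so the Dgcr8 knockout was the low group. Slc38a4, an imprinted amino acid transporter, had 3549.8, 5992 and 5554 against 1718, 3189 and 3294, with 5956 and 9111 in the wild types. Vrtn had 5.56, 0 and 0 in the Dicer knockout and 88.8, 60 and 39.1 in the Dgcr8 knockout, both under the wild-type means of 247 and 358. Zfp607b, a zinc-finger gene, was also lower in the Dicer knockout, at 130.1, 246 and 139 against 464, 1169.8 and 1456. Here the Dgcr8 knockout lay above the means of 81.2 in TFC and 357 in V6.5. Adjusted p in the limma model with the set term was 0.0117 for Sh3bgrl, 0.0125 for Klhl13, 0.0162 for Slc38a4, 0.0347 for Vrtn and 0.0398 for Zfp607b, and without it 0.703, 0.421, 1, 0.129 and 0.305. These 5 were chosen after their values were seen.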
